A study of Sus scrofa with 8 samples.

Results

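Cholesterol synthesis genes were followed in the endometrium, the inner lining of the uterus, of pregnant and non-pregnant gilts (young female pigs) on day 14. The set was put together by function, but with earlier results of these data known, so its counts are a description. It lists 8 genes: HMGCS1, IDI1, FDPS, FDFT1, SQLE and LSS, which encode enzymes of the route from acetyl-CoA to lanosterol, and INSIG1 and SREBF2, which encode parts of its control. Of these 8 genes 6 were matched by Entrez gene to a transcript of the deposited tables, 1 transcript each among 24139, and all 6 passed the filter on low counts, which left 18783 transcripts to test. IDI1 and SREBF2 were not matched by the gene table used and are not analysed here. Although the set is named for synthesis and uptake, none of its 8 genes is an uptake receptor. Uptake is described below from a separate list.

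All 8 animals were German Landrace gilts that had not reached puberty, brought to ovulation with 750 IU of PMSG and, 72 h later, 500 IU of hCG. The 4 pregnant gilts were inseminated with Pietrain semen 24 h and 36 h after hCG, and the 4 control gilts with the supernatant of semen of the same boar. In pregnant gilts the tissue was cut from the hyperemic patches at which embryos attach, in controls from comparable positions, so that pregnancy and the choice of zones cannot be told apart. Each library is poly(A) RNA of 1 animal, pooled from 3 places along 1 uterine horn.

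Cells build cholesterol from acetyl-CoA through mevalonate, farnesyl diphosphate and squalene, and they also take it up from lipoproteins. Transcription of most enzymes of the route is driven by the factor SREBP2, the product of SREBF2. When sterols are plentiful, INSIG proteins hold SREBP2 and its escort SCAP in the endoplasmic reticulum, and these genes are less active. Cholesterol is a component of membranes and the starting material of steroid hormones.

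Total counts per library ran from 28035007 to 41016150. Levels are in CPM, read counts relative to the library total after scaling with edgeR's TMM factors, given as mean ± SD of the 4 animals of a group. A log2 change sets pregnant against control gilts and carries its SE. In edgeR's quasi-likelihood test 4009 transcripts (21.3%) had an adjusted p under 0.05, with 1898 lower (10.1%) and 2111 higher (11.2%) in pregnant gilts. With library totals alone as the scale the counts were 3284 lower and 1661 higher, and the median log2 change over all transcripts was −0.15 in place of −0.02. Without pregnant replicate 2 the number of lower transcripts was 1265. Libraries of a group had a Spearman correlation over transcripts of 0.967 to 0.986, and those of different groups 0.916 to 0.957. Control replicate 4 scored −27.8 on the first principal component, against −46.1 to −42.3 in the other controls and 35.5 to 42.2 in pregnant gilts, and results are also given without it where they change.

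Of the 6 members measured, 5 fell in pregnant endometrium (HMGCS1, FDPS, FDFT1, SQLE and LSS), 0 rose and 1 (INSIG1) did not pass, beside 10.1% of all transcripts called lower. The 4 pregnant values lay below the 4 control values for all 6 members, beside 12.9% of all transcripts. Their median log2 change was −1.14, and that of all transcripts tested was −0.02. Without control replicate 4 the count of members called lower was again 5. In bulk tissue, fewer cells of a type and less RNA per cell cannot be told apart.

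**Figure D1:**
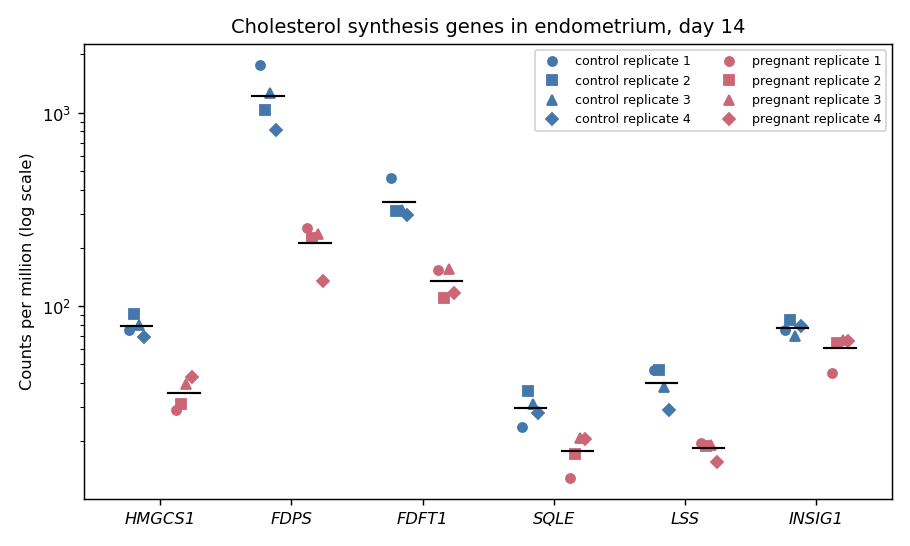
CPM (log axis) of the 6 measured members in each library, with blue for control and red for pregnant gilts, a symbol for each replicate number and black bars at the group means. For each of the 6 genes the 4 pregnant values lie below the 4 control values, with the widest gap at FDPS and the narrowest at INSIG1.

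HMGCS1 encodes the cytosolic synthase that makes HMG-CoA, the first committed intermediate of the route (Entrez gene 100524223, Sscrofa10.2 chromosome 16, 29433006 to 29454347, plus strand, 11 exons). Values are listed in the order of replicates 1 to 4. Controls stood at 75.3, 91.2, 80.1 and 69.1 CPM and pregnant gilts at 29.0, 30.9, 39.4 and 43.0 CPM. The highest pregnant library was well below the lowest control. The group means were 78.9 ± 9.32 and 35.6 ± 6.70 CPM, a log2 change of −1.15 ± 0.15 (edgeR adjusted p = 4.72e-04).

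FDPS encodes farnesyl diphosphate synthase, which makes the branch point molecule of sterols, ubiquinone, dolichol and protein prenyl groups (Entrez gene 100153932, chromosome 4, 103291851 to 103303800, minus strand, 10 exons). Its level was 1772, 1031, 1271 and 812 CPM in controls, against 252, 225, 235 and 135 CPM in pregnant gilts. Control replicate 1 was the highest and control replicate 4 the lowest of the controls, and the lowest control still exceeded every pregnant library. The means were 1222 ± 412 and 212 ± 52.2 CPM, 5.77-fold higher in controls, with a log2 change of −2.53 ± 0.27 (edgeR adjusted p = 1.19e-04).

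FDFT1 encodes squalene synthase, which joins farnesyl diphosphate molecules in the first step that serves sterols alone (Entrez gene 100312971, chromosome 14, 16164963 to 16199045, plus strand, 8 exons). Control libraries stood at 457, 310, 314 and 296 CPM and pregnant libraries at 154, 110, 156 and 117 CPM. Control replicate 1 stood apart above the other controls, and the groups did not overlap. The means were 344 ± 75.8 and 134 ± 24.2 CPM, so that FDFT1 fell by 1.36 ± 0.18 on the log2 scale (edgeR adjusted p = 4.48e-04).

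SQLE encodes squalene epoxidase, a slow and tightly controlled step (Entrez gene 100113409, chromosome 4, 15248862 to 15278864, minus strand, 11 exons). Its values were 23.5, 36.1, 31.0 and 27.9 CPM in controls and 12.8, 17.2, 20.8 and 20.5 CPM in pregnant gilts. The lowest control, replicate 1, lay just above the highest pregnant library. From 29.6 ± 5.31 CPM in controls SQLE fell to 17.8 ± 3.69 CPM, and its log2 change was −0.73 ± 0.19 (edgeR adjusted p = 0.018). Without pregnant replicate 2 it did not pass (log2 change −0.72, edgeR adjusted p = 0.0541; range over the alternatives 0.00208 to 0.0541).

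LSS encodes lanosterol synthase, which closes the rings of the sterol skeleton (Entrez gene 100625138, chromosome 13, 218519417 to 218555439, minus strand, 15 exons). Control libraries stood at 46.6, 46.8, 38.2 and 29.0 CPM and pregnant libraries at 19.6, 19.0, 19.2 and 15.6 CPM. Control replicate 4 was the lowest control, nearest to the pregnant range. The mean of LSS fell from 40.2 ± 8.46 to 18.3 ± 1.88 CPM, with a log2 change of −1.13 ± 0.17 (edgeR adjusted p = 9.35e-04).

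INSIG1 encodes the endoplasmic reticulum protein that retains SCAP and SREBP2, and it is itself a target gene of SREBP (Entrez gene 403162, chromosome 18, 2896504 to 3019639, minus strand, 7 exons). It stood at 74.8, 84.5, 70.0 and 79.1 CPM in controls and at 45.2, 64.2, 66.7 and 65.6 CPM in pregnant gilts. Pregnant replicate 1 was apart from the other 3, which lay close under the lowest control. The means were 77.1 ± 6.18 and 60.4 ± 10.19 CPM, and the log2 difference of −0.35 ± 0.14 (95% interval −0.66 to −0.04) did not pass (edgeR adjusted p = 0.102). It passed with library totals alone (log2 change −0.48, adjusted p = 0.0296; range over the alternatives 0.0296 to 0.211).

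The members differed widely in level. Per kilobase of transcript, FDPS was at 965 ± 326 CPM in controls and FDFT1 at 233 ± 51.3 CPM. INSIG1 (27.2 ± 2.18), LSS (26.5 ± 5.58), HMGCS1 (15.0 ± 1.77) and SQLE (11.7 ± 2.10) followed in CPM per kilobase, and the order of INSIG1 and LSS was within their spread. In pregnant gilts the order was FDPS (167 ± 41.2), FDFT1 (91.0 ± 16.4), INSIG1 (21.3 ± 3.59), LSS (12.1 ± 1.24), SQLE (7.04 ± 1.46) and HMGCS1 (6.75 ± 1.27 CPM per kilobase), with the last pair within their spread. By mean CPM per kilobase FDPS ranked 63 among the 18783 tested transcripts in controls and 505 in pregnant gilts, and FDFT1 ranked 384 and 985.

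The fall was uneven among members, with the largest estimate for FDPS. In log2 change the order was FDPS, FDFT1, HMGCS1, LSS, SQLE and INSIG1, and the ± SE ranges of FDFT1, HMGCS1 and LSS overlapped. FDPS made up 61.8% to 72.3% of the summed CPM of the 6 members in controls and 34.1% to 49.1% in pregnant gilts. The CPM ratio of FDPS to FDFT1, the next enzyme on the sterol branch, was 3.87, 3.33, 4.05 and 2.74 in the controls and 1.63, 2.04, 1.51 and 1.16 in the pregnant gilts, not corrected for transcript length. These ratios did not overlap between groups. The ratio of FDPS to each of the other 5 members was lower in every pregnant library than in every control, with mean log2 differences of −1.16 for FDFT1, −1.35 for HMGCS1, −1.4 for LSS, −1.77 for SQLE and −2.14 for INSIG1. FDPS was taken as the numerator after its fall was seen to be the largest, so the ratios are a description with no test, and they share FDPS. Left without any 1 library, the log2 differences ranged from −2.38 to −1.01.

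**Figure D2:**
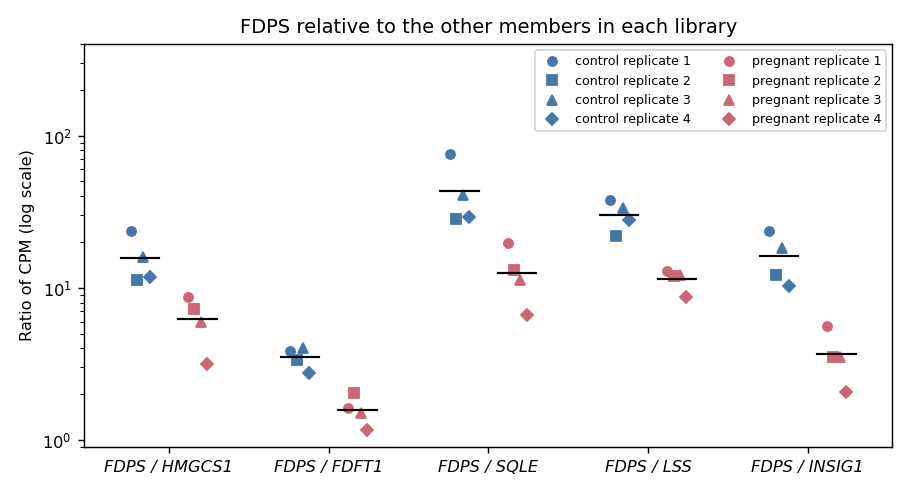
Ratio of the CPM of FDPS to that of each other member (log axis) in each library, with blue for control and red for pregnant gilts, a symbol for each replicate number and black bars at the group means. For each ratio all 4 pregnant values lie below all 4 control values, from 2.74 to 4.05 in controls and 1.16 to 2.04 in pregnant gilts for FDPS to FDFT1.

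Within the groups, the members did not all vary together. After subtraction of the group means from log2 CPM, HMGCS1, SQLE and INSIG1 correlated with each other over the 8 libraries (r of 0.84 for HMGCS1 and SQLE, 0.79 for SQLE and INSIG1, and 0.64 for HMGCS1 and INSIG1). FDPS, FDFT1 and LSS did so too (r of 0.75 for FDPS and FDFT1, 0.76 for FDPS and LSS, and 0.54 for FDFT1 and LSS). Across the trios r ran from −0.53 for SQLE and FDPS to 0.07 for HMGCS1 and LSS. The trios were picked after these values were seen, and the points share libraries, so the correlations are a description only.

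The trios stood apart in some animals and together in others. In pregnant replicate 1, HMGCS1, SQLE and INSIG1 were 0.28, 0.45 and 0.40 log2 units below their group mean (−0.28, −0.45 and −0.40), while FDPS, FDFT1 and LSS were 0.29, 0.22 and 0.10 above theirs. In pregnant replicate 4 the trios stood the other way, with HMGCS1 0.29 above its mean and FDPS at −0.61. In control replicate 1, FDPS, FDFT1 and LSS were 0.6, 0.43 and 0.24 above their group means. HMGCS1, SQLE and INSIG1 were at −0.06, −0.31 and −0.04 there. In pregnant replicate 3 all 6 members were above their group means, by 0.07 to 0.25, and in control replicate 4 all but INSIG1 were below theirs, from −0.53 for FDPS to −0.07 for SQLE. Among other enzymes of the route, those of CYP51A1, MSMO1 and SC5D had an r of 0.84, 0.88 and 0.84 with HMGCS1 and of −0.12, −0.51 and −0.55 with FDPS, while EBP, PMVK and TM7SF2 had an r of 0.93, 0.83 and 0.83 with FDPS and of −0.10, 0.16 and −0.24 with HMGCS1.

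Transcript length moved with this division among the members. The models of HMGCS1, SQLE and INSIG1 measure 5271, 2534 and 2837 bases and those of FDPS, FDFT1 and LSS 1266, 1476 and 1515 bases. Over all tested transcripts, the median deviation of those under 1600 bases exceeded that of those over 2500 bases by 0.18 log2 units in control replicate 1, and the difference was −0.12 in pregnant replicate 4 and −0.07 to 0.08 in the other 6 libraries. Among the other enzymes, MSMO1 at 1163 bases and HSD17B7 at 1005 bases went with HMGCS1 (r of 0.88 and 0.60) rather than FDPS (−0.51 and −0.24). EBP, PMVK and NSDHL, at 693, 1062 and 1086 bases, went with FDPS (r of 0.93, 0.83 and 0.76). The part of length in the division was not tested.

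**Figure D3:**
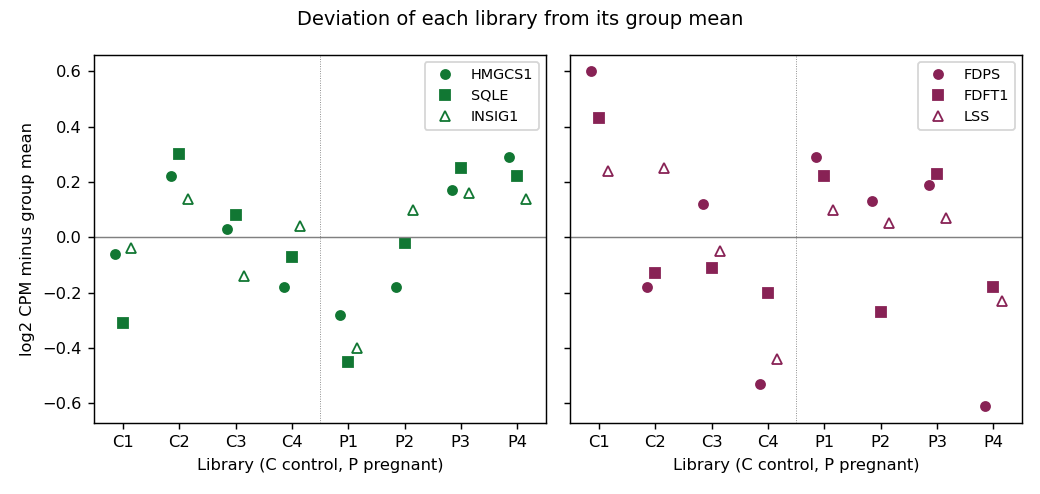
Log2 CPM minus the group mean in each library (C1 to C4 control, P1 to P4 pregnant) for HMGCS1, SQLE and INSIG1 in the left panel and FDPS, FDFT1 and LSS in the right panel. P1 is low in the left panel and high in the right one, with HMGCS1 at −0.28 and FDPS at 0.29, and P4 is high in the left panel and low in the right one.

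Most other measured enzymes of the route fell as well. Of 16 listed, 13 were matched and tested, 10 fell, 0 rose and 3 did not pass, beside 10.1% of all transcripts called lower. The median log2 change of the 13 was −0.77, all 13 estimates were below 0, and for 10 all pregnant values lay below all control values, beside 12.9% of all transcripts. MVD, LBR and ERG28 were not matched.

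Among these 13 enzymes TM7SF2 and HSD17B7, both of which act after lanosterol, had the largest estimated falls. TM7SF2, a sterol reductase, was at 36.4, 27.9, 31.2 and 16.7 CPM in controls and 11.1, 7.66, 6.98 and 6.28 CPM in pregnant gilts (log2 change −1.81 ± 0.26, edgeR adjusted p = 7.06e-04). HSD17B7, which reduces the sterol ketone after demethylation and can also convert oestrone to oestradiol, was at 71.9, 91.6, 69.0 and 80.3 CPM in controls and 21.4, 20.1, 31.2 and 23.6 CPM in pregnant gilts. It fell by 1.70 ± 0.16 on the log2 scale (edgeR adjusted p = 6.19e-05), and the groups were far apart.

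MSMO1, which removes methyl groups from the ring, fell from 48.9 ± 12.8 to 22.3 ± 4.45 CPM. CYP51A1, the lanosterol demethylase, fell from 87.8 ± 22.3 to 42.5 ± 6.62 CPM. DHCR7, a reductase of the final steps, fell from 22.5 ± 6.06 to 11.7 ± 0.503 CPM. ACAT2, NSDHL and EBP fell with log2 changes of −0.86, −0.71 and −0.77, and the model of ACAT2 shares exonic bases with 1 gene on the opposite strand. At the mevalonate kinase steps, MVK and PMVK had log2 differences of −0.57 ± 0.21 and −0.35 ± 0.23 that did not pass (edgeR adjusted p = 0.075 and 0.32), nor did SC5D (−0.49 ± 0.25, 0.2). MVK passed without control replicate 2 (log2 change −0.71, edgeR adjusted p = 0.0247) and with library totals alone (0.0238; range over the alternatives 0.0238 to 0.206), and PMVK without control replicate 4 (log2 change −0.55, 0.0391; range 0.0391 to 0.727).

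**Figure D4:**
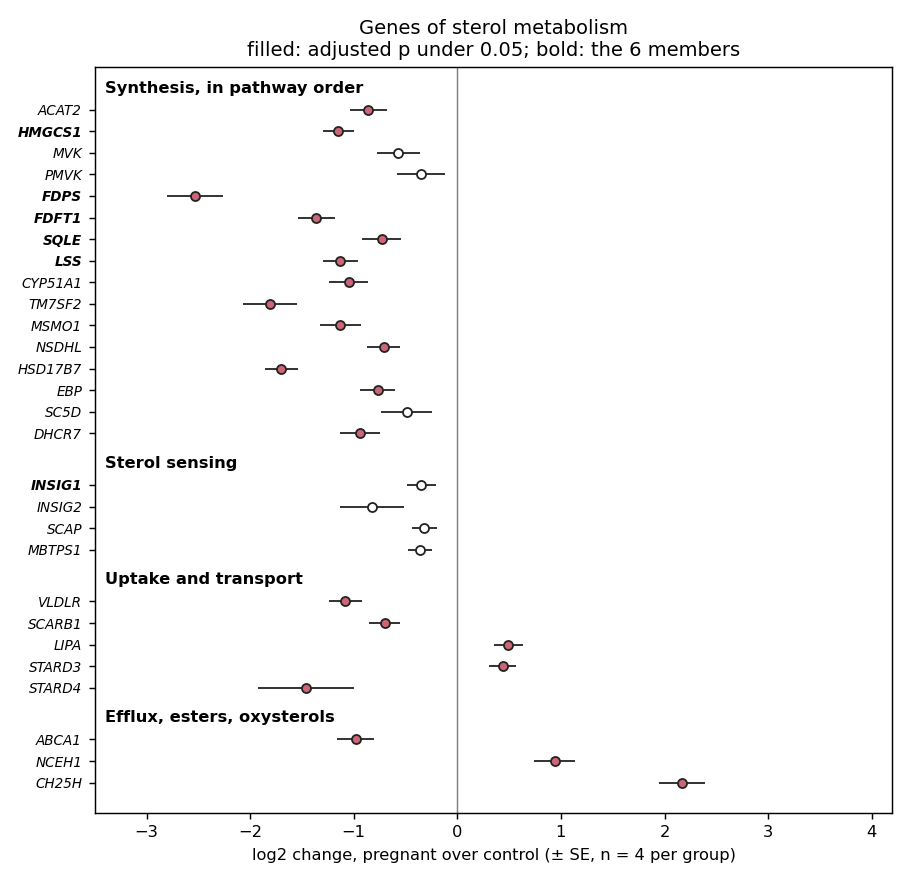
Log2 change, pregnant over control, with bars of ± SE, for the 6 members (bold) and the other genes of sterol metabolism given with values in the text, except NPC1 and NPC2, in 4 blocks, with filled points for an adjusted p under 0.05. In the synthesis block every estimate is below 0, with FDPS at −2.53, whereas the blocks on uptake and on efflux hold filled points on both sides of 0.

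Of 11 listed genes of the machinery that senses sterols, 9 were tested, 1 fell, 0 rose and 8 did not pass, with a median log2 change of −0.32. The share that fell was near the 10.1% of all transcripts called lower. Of the 9 estimates, 7 were below 0. For 3 genes all pregnant values lay below all control values, beside 12.9% of all transcripts. The escort gene SCAP was at 196 ± 23.3 and 156 ± 11.8 CPM (log2 difference −0.32 ± 0.12, edgeR adjusted p = 0.0768), and the protease gene MBTPS1, whose product cuts SREBP, at 229 ± 21.7 and 178 ± 16.9 CPM (−0.36 ± 0.12, 0.0509).

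MBTPS1 passed with DESeq2 (adjusted p = 0.0388), limma voom (0.047), summed counts per gene (0.0479), a mean of at least 1 CPM (0.0491) and library totals alone (0.0108; range over the alternatives 0.0108 to 0.133). SCAP passed with library totals alone (adjusted p = 0.00813). INSIG2, the relative of INSIG1, was at 3.67 ± 1.4 and 2.07 ± 0.467 CPM over a model of 1 exon, with a log2 difference of −0.82 ± 0.31 that did not pass with edgeR (adjusted p = 0.0833) and did with DESeq2 (0.0493). SREBF1 and MBTPS2 were not matched.

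The lipoprotein receptor genes VLDLR and SCARB1 fell. LIPA and STARD3, 2 genes of the handling of cholesterol in lysosomes and late endosomes, rose, with calls that were not firm. NPC1 and NPC2, which also take part in that handling, did not pass (log2 differences −0.16 ± 0.13 and −0.01 ± 0.15, edgeR adjusted p = 0.388 and 0.978). Of 13 genes of uptake and transport within the cell tested, 4 fell, 2 rose and 7 did not pass, beside 10.1% and 11.2% of all transcripts, and their median log2 change was −0.13. The list as a whole therefore had counts in both directions. The carrier gene STARD4 was also among those that fell.

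VLDLR, which binds very low-density lipoprotein, had means of 147 ± 29.6 and 69.5 ± 6.09 CPM and fell by 1.08 ± 0.16 on the log2 scale (edgeR adjusted p = 7.28e-04). SCARB1, the receptor for high-density lipoprotein, fell from 298 ± 39.4 to 183 ± 29.0 CPM (a log2 change of −0.70 ± 0.15, edgeR adjusted p = 0.00615).

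STARD4, a sterol carrier of the cytosol, was low throughout; its means were 1.02 ± 0.368 and 0.367 ± 0.200 CPM, a log2 change of −1.46 ± 0.46 (edgeR adjusted p = 0.0435), and its model shares exonic bases with a gene on the opposite strand. LIPA, the lysosomal lipase that frees cholesterol from its esters, rose from 97.5 ± 19.2 to 137 ± 10.5 CPM (0.49 ± 0.14, 0.034), and STARD3, a sterol carrier of late endosomes, rose from 36.6 ± 3.97 to 49.8 ± 6.34 CPM (0.44 ± 0.13, 0.0362). These 3 calls were not firm. STARD4 was no longer called when any of control replicates 2, 3 and 4 or pregnant replicates 1, 2 and 3 was left out (edgeR adjusted p = 0.0719 to 0.119). The same held for LIPA with control replicates 1, 3 and 4 and pregnant replicates 1, 2 and 3 (0.0558 to 0.0968), and for STARD3 with control replicates 2 and 3 and pregnant replicates 1, 2 and 3 (0.0746 to 0.103). LIPA and STARD3 did not pass with library totals alone either (0.105 and 0.102), nor STARD4 without the filter (0.0553).

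Of 10 listed genes of efflux, esterification and oxysterols, 7 were tested, 1 fell, 2 rose and 4 did not pass, beside 10.1% lower and 11.2% higher over all transcripts. Their median log2 change was 0.03. CH25H, which makes the oxysterol 25-hydroxycholesterol and is known as an interferon-induced gene, stood at 11.1, 9.25, 7.24 and 11.2 CPM in controls and at 46.1, 37.3, 58.5 and 32.1 CPM in pregnant gilts. Every pregnant library was above every control, and CH25H rose by 2.17 ± 0.22 (edgeR adjusted p = 7.86e-05). NCEH1, a hydrolase of cholesterol esters, rose from 3.26 ± 0.362 to 6.26 ± 0.997 CPM (0.94 ± 0.20, 0.0064). ABCA1, the pump that passes cholesterol to lipoproteins, fell from 44.0 ± 4.17 to 22.4 ± 5.41 CPM (−0.98 ± 0.18, 0.00285). CYP27A1 and CYP7B1 were not matched.

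Over these 4 lists together, 16 of 42 tested genes fell, 4 rose and 22 did not pass, beside 10.1% lower and 11.2% higher over all transcripts. The share that rose was not above that of all transcripts. Of the 16 that fell, 10 were synthesis enzymes. Without control replicate 4, 16 fell and 3 rose, and without control replicate 3, pregnant replicate 1 or pregnant replicate 3 the number that rose was 2.

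Markers of several cell types differed between the groups in the same libraries. Their counts stand beside 10.1% of all transcripts called lower and 11.2% called higher. Of 6 tested epithelial markers 3 fell (KRT8, KRT18 and KRT19), 0 rose and 3 did not pass, and the summed level of the list was 1646 to 2426 CPM in controls and 565 to 787 CPM in pregnant gilts, most of it from these 3 keratin genes. That of the 6 members was 1313 to 2450 CPM and 397 to 537 CPM. The keratin gene KRT8 fell by 2.10 ± 0.19 on the log2 scale (edgeR adjusted p = 4.2e-05) and KRT18 by 1.58 ± 0.18 (1.77e-04). EPCAM, an adhesion molecule of epithelia, was at 144 ± 43.8 and 116 ± 20.6 CPM, with overlapping groups (adjusted p = 0.315), and MUC1 (log2 difference 0.25) and FOXA2 did not pass either. The part of epithelial RNA in the fall of the members was not tested.

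All 7 T and cytotoxic cell markers (summed 20.0 to 53.5 CPM in controls and 114 to 197 CPM in pregnant gilts) and all 5 tested macrophage markers (254 to 443 and 719 to 933 CPM) rose. Over all transcripts, 11.2% were called higher and 10.1% lower. Of 4 smooth muscle markers 3 fell (445 to 707 and 245 to 386 CPM). Of 6 stromal markers 1 fell and 2 rose, led in level by COL3A1 and VIM (16842 to 20179 and 10171 to 15079 CPM). The stromal gene that fell, COL3A1, was no longer called when control replicate 3, control replicate 4 or pregnant replicate 2 was left out (edgeR adjusted p = 0.051 to 0.0682). Of 4 endothelial markers 1 rose (511 to 993 and 733 to 1037 CPM), and of 2 tested adipocyte markers 0 passed (1.32 to 3.12 and 1.80 to 2.53 CPM). Of 4 tested markers of the conceptus and of steroid synthesis 1 fell and 1 rose (132 to 171 and 76.5 to 98.2 CPM). Most of this level was GATA2, a gene of endometrium too, and GATA2 was the marker that fell. The marker that rose was GATA3, with a control mean of 2.74 CPM against 6.47 CPM for pregnant animals. GATA3 had 350 reads in the controls too, and the cells its reads came from were not tested. Every pregnant library exceeded every control for GATA3, as for 13.2% of all transcripts, and edgeR's test called it (adjusted p = 0.00823, estimate 1.24 ± 0.27 in log2 units). The steroid synthesis markers STAR and HSD3B1 did not pass (log2 differences 0.11 ± 0.48 and −0.02 ± 0.47, edgeR adjusted p = 0.904 and 0.986). CDX2 had 0 reads in controls and 4 in pregnant gilts and CYP17A1 11 and 7, too few to test. The part of these cell types in the members' values was not tested.

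By Pearson correlation over the 8 libraries with the mean log2 CPM of the 6 members, the 5 named transcripts outside the lists that were most alike were those of NPNT (r = 0.997), FXYD4 (0.994), PLP2 (0.993), ABHD5 (0.991) and SALL1 (0.99). Such values rest mostly on the difference between the groups, and 215 of 18783 transcripts had an r of at least 0.95. NPNT, a matrix protein that binds integrins, fell from 14.8 ± 2.14 to 4.29 ± 0.316 CPM, and FXYD4, a regulator of the sodium pump, from 29.1 ± 11.6 to 2.41 ± 0.490 CPM. PLP2, a membrane protein, fell from 168 ± 14.6 to 58.8 ± 5.25 CPM, ABHD5, an activator of triglyceride breakdown, from 22.0 ± 2.36 to 11.6 ± 0.386 CPM, and SALL1, a zinc finger factor, from 142 ± 15.9 to 57.7 ± 8.02 CPM. The edgeR adjusted p ran from 1.69e-05 for PLP2 to 6.64e-04 for ABHD5. These transcripts were picked for a likeness that rests mostly on the group difference, so their falls and small p are no separate result.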

How the data were processed

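Raw read counts, one per library for each transcript of a merged assembly, were deposited by the authors, per the file headers. The authors' other deposited files hold exon positions. Tools in the submitters' processing notes are CASAVA 1.6, TopHat 1.4, Cufflinks 1.3 and DESeq, with the build Sscrofa10.2. The counting tool, and how it treated reads with several matches or shared by isoforms, is not given in the sources used here. Library totals (28035007 to 41016150) can count such reads more than once.

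Names were taken from RefSeq genes of Sscrofa11.1, whose coordinates were not used (16270 of 21064 genes by Entrez ID, 103 by accession, 4691 without). A gene is represented by its transcript of highest mean count. The test was edgeR 4.0.16 under R 4.3.3: TMM scaling, the filterByExpr filter (minimum count 10) and a robust quasi-likelihood fit on group, with p-values adjusted by Benjamini-Hochberg over all 18783 tested transcripts. SE are those implied by the F statistic. Log2 CPM used a prior count of 2. The test was checked on simulated data, in which far fewer transcripts changed (57 to 77 at each fold) than were called here. There edgeR found 5.19% of 1.5-fold, 38.6% of 2-fold and 86.4% of 4-fold changes, with 6 false calls among 89. DESeq2 made 43 false calls among 149, so genes that passed with DESeq2 but not with edgeR are to be read with caution. Alternatives were other scalings and filters, DESeq2 1.42.0, limma 3.58.1 voom, counts per gene, a replicate block and leaving out each library.

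The members and lists were chosen with earlier results of these data known. Named were the members, up to 6 passing genes per list by p, up to 2 markers per cell type by level and the 5 transcripts most like the members. The other list genes, and the ratios to FDPS, were chosen after values were seen. Results for a few list genes are left out here, though the counts include them. RNA integrity numbers were 7.0 to 8.8. Each library is a different animal.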

Additional observations from a re-analysis of the deposited data

Results flagged for a closer look

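Of 68 groups of 4 libraries checked (the members and the list genes that passed or had one of the larger estimates, in controls and in pregnant gilts), 5 held a library far from the other 3, where chance flags about 1 in 20. The measure is the gap to the nearest library divided by the range of the group and exceeded Dixon's 95% critical value in each case. FDFT1 in control replicate 1 stood at 457 CPM against 296 to 314 in the other controls (0.886). LSS in pregnant replicate 4 stood at 15.6 CPM against 19.0 to 19.6 (0.836). INSIG1 in pregnant replicate 1 stood at 45.2 CPM against 64.2 to 66.7 (0.882). SCAP in control replicate 1 stood at 231 CPM against 183 to 186 (0.941), and NCEH1 in pregnant replicate 1 at 4.78 CPM against 6.66 to 6.93 (0.878).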

How the results depend on the processing

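Under the alternatives, the members called lower numbered 4 to 6 and those called higher 0. The other list genes called lower numbered 15 to 19 and those called higher 2 to 5, with 2 to 4 when 1 library was left out. FDPS, FDFT1, HMGCS1 and LSS passed under all 17 alternatives, FDPS with log2 changes of −2.68 to −2.27. Of 832 values of 49 genes under the alternatives, 791 kept direction and call, 26 no longer passed, 15 passed newly and 0 changed direction. Transcripts called lower numbered 1265 to 2017 when 1 library was left out and 3284 with library totals alone. With the replicate number as a block the members called lower numbered 5, the other list genes 16 lower and 4 higher, and all transcripts 3883. Deviations of same-numbered libraries correlated at −0.09 to 0.19, so the numbers do not pair the animals, and 2 of 4 controls correlated best with their own number. Among the genes given here, the block ended the calls of STARD3 (adjusted p = 0.0668) and the stromal marker COL3A1 (0.0502). With 4 animals a group, small differences such as that of INSIG1 were not resolved.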

Other observations

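SOAT2, which esterifies cholesterol, had too few reads to test, with 80 in controls and 23 in pregnant gilts.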
